A study of Mus musculus with 16 samples.

Results

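The genes described here encode the machinery that carries cargo along the primary cilium, the single antenna-like projection of most cells. They were chosen by name, among the genes of the deposited expression table whose symbol is *Ift* or *Bbs* followed by a digit, or *Tctn* or *Nphp* followed by a digit. They are 26 of the 16707 genes in the table, with 14 *Ift*, 8 *Bbs* and 4 *Tctn* or *Nphp* genes, all protein coding and all measured and tested in every library. They were measured in primary astrocytes of WT (C57BL/6J) and *Nlrx1*-/- mice, to ask how loss of NLRX1, a mitochondrial protein of the NOD-like receptor family, changes astrocytes under inflammatory stimulation.

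Brain cells of P6 pups were selected with beads against the astrocyte surface antigen ACSA-2 and grown without serum. WT cultures came from 4 litters and *Nlrx1*-/- cultures, which lack the gene in all cells, from another 4 litters. The 4 groups are WT vehicle, WT LPS+IFNγ, *Nlrx1*-/- vehicle and *Nlrx1*-/- LPS+IFNγ, with 4 litters in each and 16 libraries in all. The stimulus was lipopolysaccharide (LPS) at 500 ng/mL together with IFNγ at 10 ng/mL for 24 h, against water as vehicle, and each litter, as 1 set of pups, gave both a vehicle and a stimulated well. Litters are the replicates. For the responses and their difference, the p-values measure how the responses spread over litters. For the genotype comparisons they use the spread within groups over all 16 libraries, which counts both wells of a litter as independent. The study took WT and *Nlrx1*-/- pups with the same day of birth, but no source used here says whether litters with the same number share that day.

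Intraflagellar transport (IFT) moves trains of protein along the microtubules of the cilium, outward on kinesin and back on dynein. The trains hold complex IFT-B, here 11 genes, and complex IFT-A, here 3 genes. The BBSome, a coat of which 6 subunit genes are measured here, rides on these trains and takes membrane receptors out of the cilium, and *Bbs10* and *Bbs12* encode chaperonin-like proteins that help to build it. The other 4 genes, among them the 3 tectonics, belong to the transition zone at the ciliary base, which acts as a gate. Astrocytes carry primary cilia, through which they receive Hedgehog signals, and ependymal cells carry many motile cilia that are built with the same transport genes.

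Reads assigned to transcripts numbered between 27259420 and 43752903 per library, and a member gene held between 59 and 4066 reads in a library. *Nlrx1* itself was at 4.22 ± 0.15 log2 CPM (SD, n = 4) in WT vehicle and 2.47 ± 0.53 (SD, n = 4) in *Nlrx1*-/- vehicle, a log2 fold change of -1.75 (limma, adjusted p = 0.0497), and the fold change in LPS+IFNγ was -2.22 (limma, adjusted p = 0.00222). All 10 astrocyte markers were in the table, with a summed level between 5386 and 10848 CPM. Of 8 microglial markers, 2 were in the table, and *Aif1*, *Cx3cr1*, *Tmem119*, *Csf1r*, *Itgam* and *Ptprc* were not among its genes. Markers of the oligodendrocyte lineage were present, summing to between 2135 and 3734 CPM, and 17 of 18 markers of multiciliated cells were in the table. In bulk RNA, fewer cells of a type and less RNA per cell cannot be told apart.

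Levels were compared between genes per transcript length, as TPM, for the 19 members with at least 90% of their reads on transcripts that could be paired with a symbol in every library. Over the 16 libraries the mean TPM was highest for *Ift22*, at 96.2, and *Ift27*, at 78.6, which encode small GTPases of the IFT-B complex. *Ift43* followed at 47.5, *Ift20* at 43.6 and *Ift74* at 43.3, and the ranges of these 3 genes overlapped. Most other IFT genes lay between 21.9 (*Ift172*) and 35.2 TPM (*Ift52*). The BBSome genes were lower, with means of 15.2 for *Bbs7* and 14.8 for *Bbs2*, and *Bbs1* ranged from 5.90 to 18.6. *Bbs10* had the lowest mean, at 2.84 TPM, with a range from 1.27 to 4.80, and the fewest reads. In GRCm39 the genes on which most of the results below turn are spread over the genome, with *Bbs1* at chr19:4936906-4956676 and *Bbs9* at chr9:22386831-22800160. *Ift46* lies at chr9:44679205-44704744, *Ift57* at chr16:49519544-49591985 and *Ift80* at chr3:68799832-68911920. *Ift81* and *Tctn2* both lie on chromosome 5, at chr5:122658556-122752612 and chr5:124736812-124765806.

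**Figure D1:**
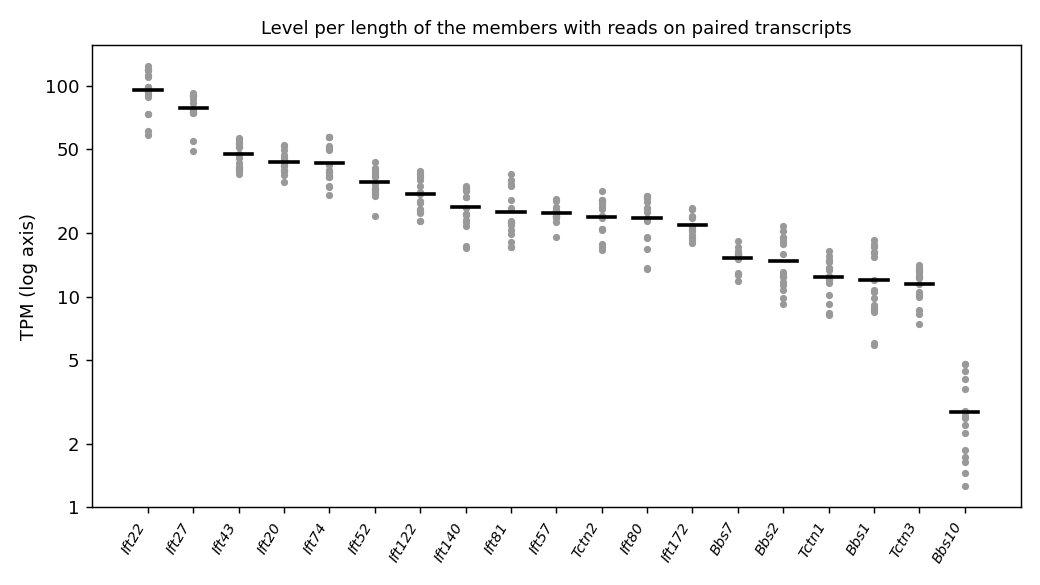
TPM (log axis) of the 19 members with at least 90% of their reads counted in every library, 1 point per library and a bar at the mean of the 16 libraries. Among these 19, IFT genes fill the upper part of the order, from 96.2 TPM for *Ift22*, and *Bbs10* stands lowest at 2.84. *Ift88*, left out with as little as 87.9% of its reads counted, had a mean of 6.66 TPM.

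The promoters of 23 members were found in the RefSeq table, as windows from 250 bases before to 50 bases after the start site. *Ift122*, *Ift80* and *Ift81* have no entry there. RFX factors, only some of which are known to turn on ciliary genes, bind the X-box, an inverted repeat. The X-box was searched on both strands as GTTNCC, then 0 to 3 bases, then GGNAAC. It was found in 4 of the 23 genes (17.4%), and in 253 of all 27025 genes with a window (0.936%). The left arm alone, GTTGCC, was found in 12 of the 23 (52.2%) against 14.1% of all genes, and each X-box below also counts there. The X-box sequences are shown because they come from members with unlike responses, each with the repeat and its gap in capitals, 5′ to 3′ on the strand of the match. The letters are from RefSeq (GRCm38.p6), and the positions are their exact matches in GRCm39.
*Ift57*: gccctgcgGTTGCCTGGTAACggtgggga
*Bbs7*: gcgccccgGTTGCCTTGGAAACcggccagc
*Tctn3*: tcccagcgGTTGCCAGGTAACgggaacca
*Tctn1*: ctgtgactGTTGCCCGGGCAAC
The *Ift57* sequence lies at chr16:49519589-49519617, the *Bbs7* sequence at chr3:36667638-36667667 and the *Tctn1* sequence at chr5:122402474-122402495. An untranslated exon of GENCODE M39 overlaps each of these. For *Bbs7* the overlap is partial, since the annotated gene reaches only to chr3:36667649, within the repeat. The *Tctn3* sequence lies at chr19:40600795-40600823, outside the annotated gene. The repeat starts 60, 121 and 140 bases before the RefSeq start site in *Ift57*, *Bbs7* and *Tctn3*, and 37 bases after it in *Tctn1*. A match in letters is not shown to be a bound site.

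In WT astrocytes, LPS+IFNγ lowered most of the measured BBSome genes and some genes of both IFT complexes. Of the 26 members, 10 fell and 1 rose (limma with litters as blocks, adjusted p below 0.05 over all 16707 genes), while 21.9% of all genes fell and 24.9% rose. By role, 4 of 6 BBSome genes fell, as did *Bbs10*, 2 of 3 IFT-A genes and 3 of 11 IFT-B genes, and none of the 4 transition zone genes passed the limma test. The count for IFT-B is near the share of all genes that fell. The median log2 response was -0.08 for the IFT-B genes and -0.52 for the BBSome genes. The median log2 response was -0.09 over the members and -0.02 over all genes, and by litter the members' median was -0.15, -0.13, -0.17 and -0.05 in litters 1 to 4. The vehicle and LPS+IFNγ libraries did not overlap for 9 members that were lower after the stimulus, where 17.6% of all genes did the same, and for 1 that was higher, against 20.2%. With each library centred on its median the members' median response was -0.18 and the same 11 members were called, while the split over all genes moved from 4154 higher and 3656 lower to 3261 and 4774.

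*Bbs1* encodes the BBSome subunit that binds the small GTPase ARL6, which recruits the coat to membranes. In WT litters 1 to 4 it was at 5.52, 5.45, 5.57 and 5.65 log2 CPM in vehicle and at 4.79, 4.81, 4.97 and 5.06 in LPS+IFNγ. All stimulated libraries lay below all vehicle libraries. The log2 response was -0.64 (SE 0.06, limma adjusted p = 4.17e-06), which is 35.8% lower. *Bbs2*, of the core that BBS2, BBS7 and BBS9 form, was at 4.47, 4.58, 4.68 and 4.74 log2 CPM in vehicle and 4.08, 4.21, 4.00 and 4.15 in LPS+IFNγ, again without overlap. Its response was -0.51 (SE 0.08, limma adjusted p = 0.000325). *Bbs9*, of the same core, was at 4.66, 4.96, 4.79 and 4.88 in vehicle and within 4.22 to 4.25 in all 4 stimulated libraries. The groups did not overlap, and the response was -0.58 (SE 0.11, limma adjusted p = 0.00118). *Bbs7*, the other member of that core, had a response of 0.01 with a 95% interval from -0.20 to 0.22, and its libraries overlapped.

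Within IFT-B, *Ift81* and *Ift74* encode the pair that binds tubulin, the main cargo of the growing cilium, and both fell. *Ift81* was at 5.42, 5.51, 5.38 and 5.60 log2 CPM in WT vehicle and at 5.01, 5.10, 5.05 and 5.04 in LPS+IFNγ. The response was -0.43 (SE 0.08, limma adjusted p = 0.00106) and the groups did not overlap. *Ift74* was at 5.54, 5.43, 5.57 and 5.64 in vehicle and 5.23, 5.20, 5.12 and 5.26 in LPS+IFNγ, without overlap, a response of -0.34 (SE 0.06, limma adjusted p = 0.00049). The reads carry no strand, and *Ift74* shares 2077 exon bases with *Lrrc19* on the opposite strand and *Ift81* shares 601 with the non-coding gene *1700040P09Rik*, so reads from there cannot be told apart. *Ift46*, of the IFT-B core, was at 5.44, 5.78, 5.69 and 5.80 in vehicle and 5.12, 5.20, 5.20 and 5.46 in LPS+IFNγ. It was lower in every litter, but the stimulated library of litter 4 lay above the vehicle library of litter 1. Its response was -0.43 (SE 0.06, limma adjusted p = 0.000165).

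The other members that fell in WT were *Bbs4* (-0.54), *Bbs10* (-0.53) and the IFT-A genes *Ift140* (-0.23) and *Ift122* (-0.21). The 1 member that rose was *Ift57*, of the peripheral part of IFT-B, at 4.71, 4.69, 4.77 and 4.74 log2 CPM in vehicle and 5.09, 5.00, 4.92 and 5.16 in LPS+IFNγ. All its stimulated libraries lay above all vehicle libraries, and the response was 0.32 (SE 0.08, limma adjusted p = 0.00496). *Ift57* shares 494 exon bases with the non-coding gene *Gm15518* on the opposite strand, so reads from there cannot be told apart. *Ift57* holds one of the X-box sequences above, while *Bbs7*, *Tctn1* and *Tctn3*, which hold the others, did not pass the test in either genotype. *Ift172*, also of the peripheral part, had a response of -0.02 with a 95% interval from -0.16 to 0.12. Without 1 litter, the calls of *Bbs10* and *Ift122* were lost in 3 of 8 fits each, without WT litter 1, 2 or 3, and that of *Ift140* without WT litter 2.

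**Figure D2:**
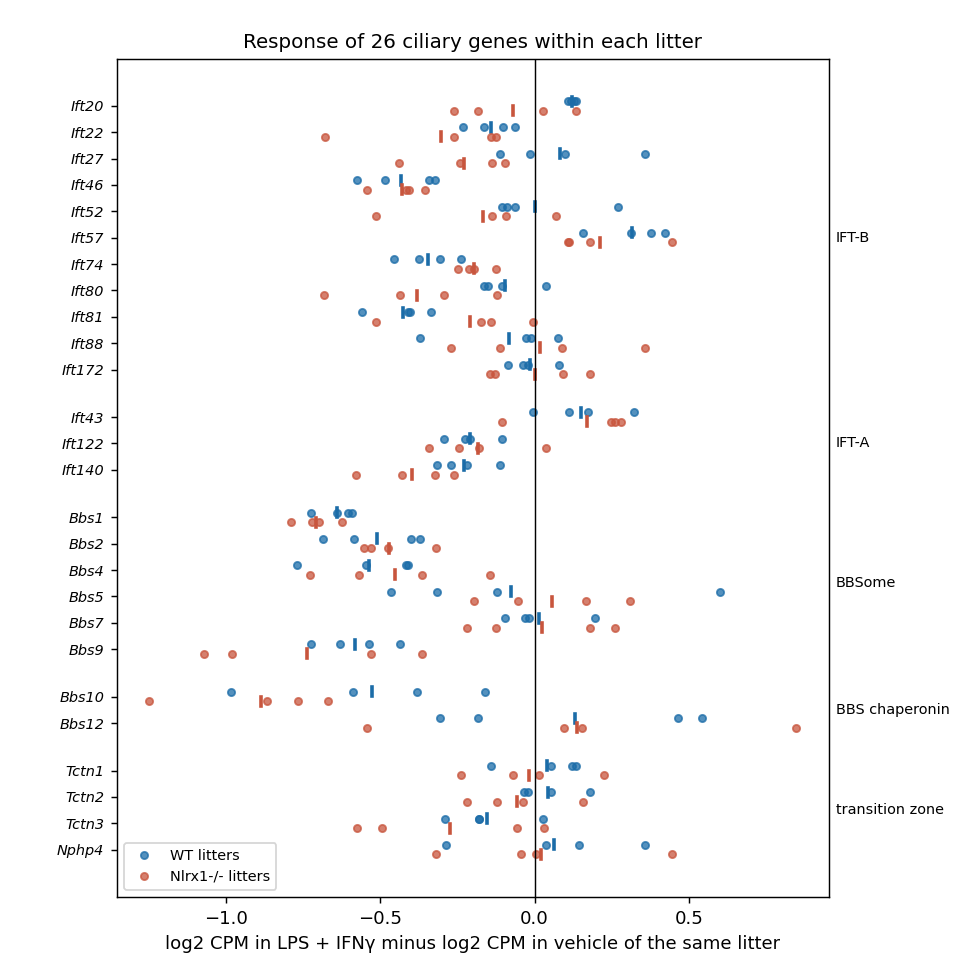
Log2 CPM in LPS+IFNγ minus log2 CPM in vehicle of the same litter for the 26 members, grouped by role, with 1 point per litter and a short bar at the mean of 4 litters (WT blue, *Nlrx1*-/- red). *Bbs1*, *Bbs2*, *Bbs4*, *Bbs9* and *Ift46* lie left of 0 in all 8 litters, and *Ift57* lies right of 0 in all 8.

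In *Nlrx1*-/- astrocytes, 13 members fell and 1 rose after LPS+IFNγ by the same test, against 25.5% and 26.6% of all genes. The 11 members called in WT were all among the 14 called here, in the same direction, and the other 3 were *Ift22*, *Ift27* and *Ift80*. By role, 4 of 6 BBSome genes, *Bbs10*, 2 of 3 IFT-A genes and 6 of 11 IFT-B genes fell, and *Ift57* rose. The median log2 response was -0.19 over the members and -0.02 over all genes, and by litter the members' median was -0.12, -0.14, -0.23 and -0.22. Groups did not overlap for 4 members that were lower (14.4% of all genes) and for 1, *Ift57*, that was higher (17.6%). Fitted without the litters as blocks (no replicate block), 8 members were called, all of them lower, among 3299 of all genes called lower.

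*Bbs1* was at 5.48, 4.91, 5.42 and 5.09 log2 CPM in the vehicle libraries of *Nlrx1*-/- litters 1 to 4 and at 4.78, 4.29, 4.70 and 4.30 in LPS+IFNγ. No stimulated library reached the lowest vehicle library, and the response was -0.71 (SE 0.06, limma adjusted p = 1.48e-06), which is 38.8% lower. *Bbs9* was at 4.74, 4.36, 4.89 and 4.80 in vehicle and 4.38, 3.38, 4.36 and 3.73 in LPS+IFNγ. It was lower in every litter, by more in litters 2 and 4 than in litters 1 and 3, and the stimulated library of litter 1 lay above the vehicle library of litter 2. The response was -0.74 (SE 0.11, limma adjusted p = 0.000178). *Bbs2* was at 4.35, 4.09, 4.52 and 4.64 in vehicle and 3.82, 3.77, 4.04 and 4.08 in LPS+IFNγ, just without overlap, a response of -0.47 (SE 0.08, limma adjusted p = 0.000501). *Bbs10* was at 1.702, 1.873, 2.560 and 2.583 in vehicle and 0.834, 1.108, 1.891 and 1.335 in LPS+IFNγ, with overlap. Its response of -0.89 (SE 0.18, limma adjusted p = 0.0015), 46.0% lower, was the largest of the 26 in size and rests on the fewest reads, from 59 to 257 per library over both genotypes.

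Among the IFT genes, *Ift46* was at 5.38, 5.14, 5.49 and 5.49 log2 CPM in *Nlrx1*-/- vehicle and 4.97, 4.72, 5.13 and 4.95 in LPS+IFNγ. The groups did not overlap, and the response of -0.43 (SE 0.06, limma adjusted p = 0.000139) equalled that in WT to the second decimal. *Ift140*, an IFT-A core subunit, was at 6.50, 6.25, 6.39 and 6.41 in vehicle and 6.18, 5.82, 6.13 and 5.83 in LPS+IFNγ. Its groups did not overlap either, and the response was -0.40 (SE 0.06, limma adjusted p = 0.00017). *Ift140* shares 1190 exon bases with *Tmem204* on the opposite strand. The call of *Ift57* (0.21), the 1 member that rose, was lost with libraries centred on their median and on counts with edgeR and DESeq2, which called 25.2% and 21.9% of all genes as higher. The call of *Ift81* (-0.21) was lost in 7 of 8 fits without 1 litter, and those of *Ift22*, *Ift27*, *Ift57*, *Ift74* and *Ift122* in 1 to 4 of the 8. *Bbs1*, *Bbs2*, *Bbs4*, *Bbs9* and *Ift46* were called as lower in both genotypes in all 8 fits.

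**Figure D3:**
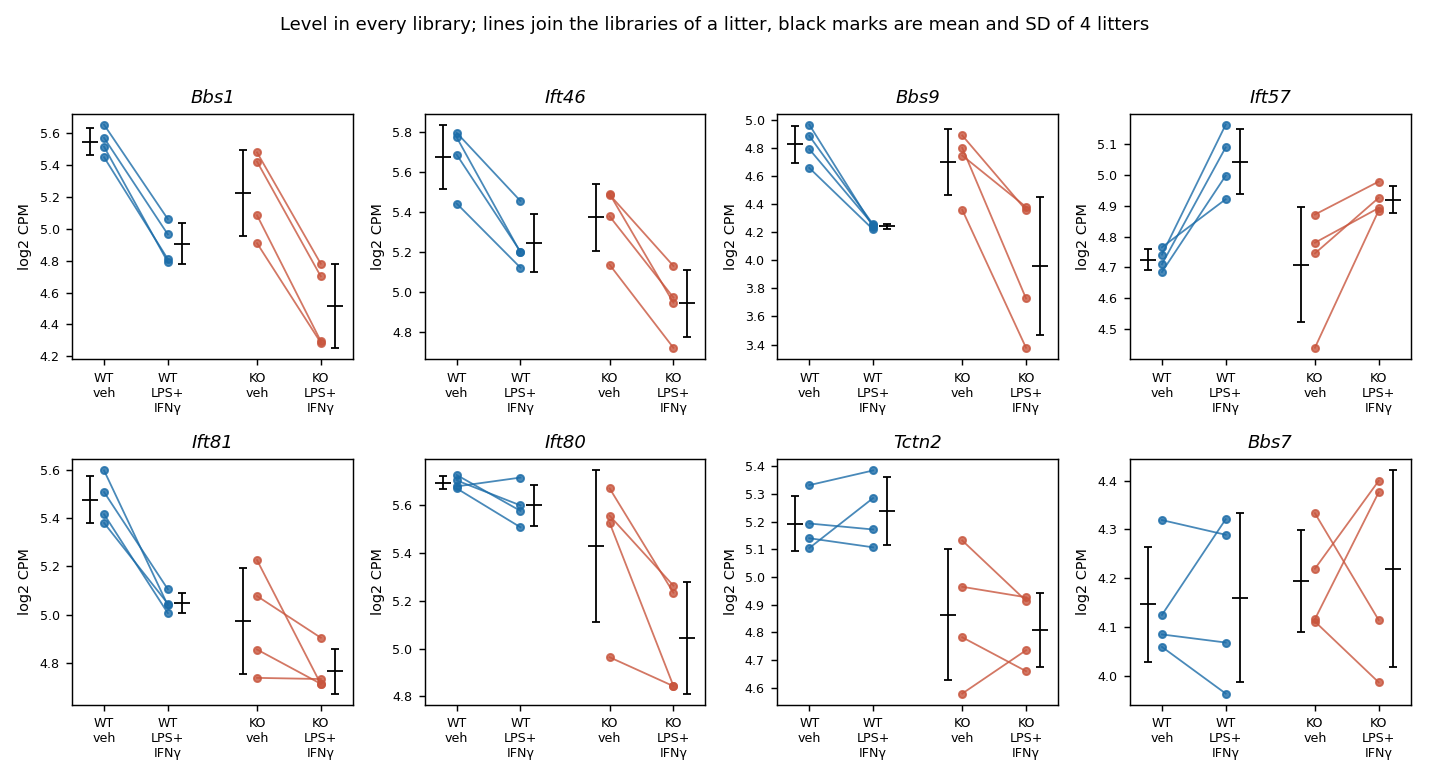
Log2 CPM of 8 members in every library, with a line joining the libraries of a litter and black marks at the mean and SD of 4 litters (WT blue, *Nlrx1*-/- red, KO stands for *Nlrx1*-/-). *Bbs1*, *Ift46* and *Bbs9* fall in every litter and *Ift57* rises in every litter, while *Bbs7* moves in both directions.

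In the same libraries, most markers of multiciliated cells fell after LPS+IFNγ. Their summed level was 242 to 363 CPM in WT vehicle and 156 to 242 in WT LPS+IFNγ, and 128 to 259 and 89.2 to 149 CPM in *Nlrx1*-/- astrocytes. Of the 17 markers, 11 fell in WT and 12 in *Nlrx1*-/- astrocytes and 0 rose, while 21.9% and 25.5% of all genes fell. *Foxj1*, the master regulator of motile cilia, fell by 0.51 on the log2 scale in WT and by 0.59 in *Nlrx1*-/- astrocytes. It was by far the most abundant of these markers, at a mean of 7.60 log2 CPM in WT vehicle, with *Cfap44* next at 4.33. The summed level therefore holds mostly *Foxj1*. In *Nlrx1*-/- astrocytes all 12 proliferation genes fell as well (summed 1889 to 2475 CPM in vehicle and 1114 to 1986 in LPS+IFNγ), and in WT 3 fell and 1 rose. Other lists were split. Of 10 astrocyte markers 3 rose and 4 fell in WT, and 2 rose and 5 fell in *Nlrx1*-/- astrocytes. Of 7 neuronal markers 2 rose and 2 fell in WT, and 3 rose and 3 fell in *Nlrx1*-/- astrocytes. Oligodendrocyte markers fell for 6 of 9 in WT and 7 of 9 in *Nlrx1*-/- astrocytes. Of 5 fibroblast or meningeal markers 2 fell in WT, with sums of 141 to 153 CPM in vehicle and 48.9 to 78.0 in LPS+IFNγ, and 3 fell in *Nlrx1*-/- astrocytes, with sums of 73.8 to 155 and 34.4 to 78.5 CPM. *Pdgfra* is on both the oligodendrocyte and the fibroblast or meningeal list. It was the most abundant of the latter, at a mean of 6.97 log2 CPM in WT vehicle, with *Col1a2* next at 3.55. The fibroblast or meningeal sums therefore hold mostly *Pdgfra*, which fell by 1.34 in WT and by 1.56 in *Nlrx1*-/- astrocytes. The other called genes of that list were *Col1a2* in WT and *Col1a1* and *Col1a2* in *Nlrx1*-/- astrocytes. The part of these markers in the members' responses was not tested.

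**Figure D4:**
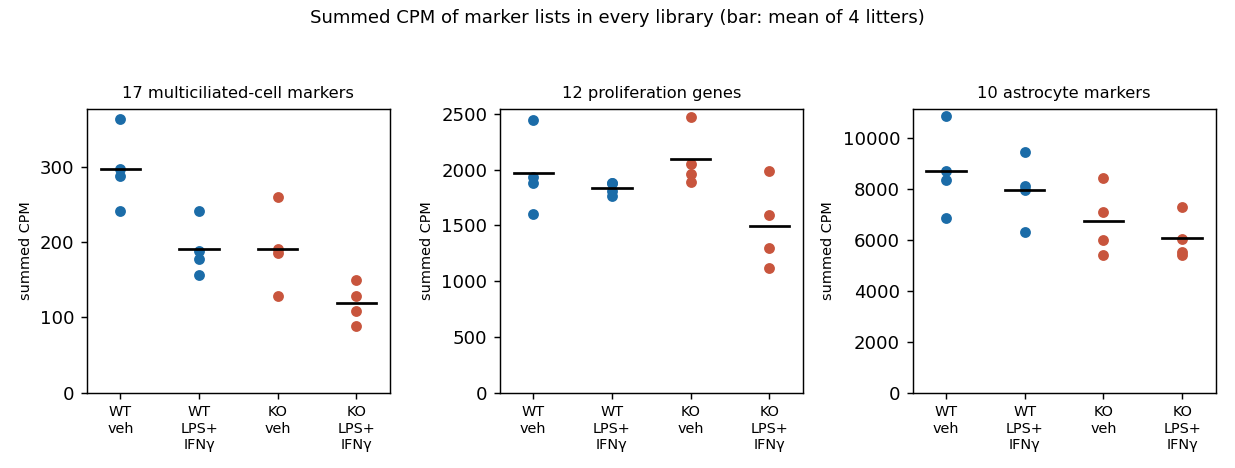
Summed CPM of 3 marker lists, 1 point per library with a bar at the mean of 4 litters (KO stands for *Nlrx1*-/-). The sums of the 17 multiciliated markers, which hold mostly *Foxj1*, are lowest in *Nlrx1*-/- LPS+IFNγ, at 89.2 to 149 CPM.

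For the difference between the responses, *Nlrx1*-/- minus WT, limma called 0 of the 26 members and 0% of all genes, with 2 members and 2786 genes at an unadjusted p below 0.05. edgeR and DESeq2 on counts also called 0 members, and DESeq2 called 285 genes in all (2.28%). The differences were above 0 for 12 members and below 0 for 14, with a median of -0.05. *Ift27*, a Rab-like GTPase that links the BBSome to the trains, responded by -0.11, 0.10, 0.36 and -0.01 on the log2 scale in the WT litters and by -0.10, -0.44, -0.14 and -0.24 in the *Nlrx1*-/- litters. The ranges overlapped, since WT litter 1 lay among the *Nlrx1*-/- litters, and the difference was -0.31 (SE 0.12, limma adjusted p = 0.236). *Ift80*, of the peripheral part of IFT-B, responded by -0.16, -0.15, -0.10 and 0.04 in WT and by -0.29, -0.12, -0.44 and -0.68 in *Nlrx1*-/- litters, with overlap at litter 2. The difference was -0.29 (SE 0.12, limma adjusted p = 0.247). A difference is not shown for the 3 members called in *Nlrx1*-/- astrocytes and not in WT. The 95% interval of the difference ran from -0.25 to 0.12 for *Bbs1*, from -0.20 to 0.20 for *Ift46* and from -0.21 to 0.29 for *Bbs2*. It was wider for *Bbs9*, from -0.50 to 0.19, and *Bbs4*, from -0.25 to 0.42, and for *Bbs10* it ran from -0.92 to 0.20.

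Between the genotypes in vehicle, limma called 0 of the 26 members, with 9 at an unadjusted p below 0.05, and 0.00599% of all genes, which is *Nlrx1* alone, with 3532 at an unadjusted p below 0.05. On counts edgeR called 0 members and 0% of all genes, and DESeq2 called 1 member, *Ift81*, as lower, against 1.72% of all genes called lower and 4.56% in either direction. The log2 fold change, *Nlrx1*-/- against WT, was below 0 for 19 members, while 48.7% of all genes were below 0, and its median was -0.16 against 0.0057 over all genes. It was below 0 for 10 of 11 IFT-B genes, all 3 IFT-A genes and 4 of 6 BBSome genes. The *Nlrx1*-/- libraries lay below all WT libraries for *Bbs4*, *Ift80* and *Ift81*, where 3.43% of all genes did, and above them for 0 members (6.02% of all genes).

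*Ift81* had the lowest p of the members. Its WT vehicle levels are given above, between 5.38 and 5.60 log2 CPM, and the *Nlrx1*-/- vehicle libraries of litters 1 to 4 were at 5.08, 4.74, 5.23 and 4.86. The genotypes did not overlap, and the fold change was -0.50 (SE 0.09, limma adjusted p = 0.0928), with a 95% interval from -0.70 to -0.30. *Bbs4*, a BBSome subunit that also sits on centriolar satellites, was at 4.35, 4.35, 4.34 and 4.49 in WT and 4.12, 3.54, 4.20 and 3.99 in *Nlrx1*-/- vehicle. It did not overlap either, and the fold change was -0.42 (SE 0.13, limma adjusted p = 0.119). For *Ift81*, *Bbs4*, *Ift80* and *Tctn2* alike, litter 2 was the lowest and litter 3 the highest of the *Nlrx1*-/- vehicle libraries. Other members did not share this order, and for *Bbs7*, *Bbs12*, *Ift20* and *Nphp4* litter 2 was the highest. Litters 2 and 3 had the lowest and highest sum of multiciliated markers in that group, 128 and 259 CPM, and of astrocyte markers, 5386 and 8416 CPM. Without *Nlrx1*-/- litter 3 limma called 4 members as lower, *Ift81*, *Bbs4*, *Ift122* and *Tctn2*, among 930 of all genes called lower, without WT litter 1 it called *Ift81* (adjusted p = 0.0366), and without *Nlrx1*-/- litter 2 the members' median was -0.07.

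In LPS+IFNγ, limma called 2 members as lower in *Nlrx1*-/- astrocytes, against 4.41% of all genes called lower and 8.80% in either direction, and 13 members and 4950 of all genes had an unadjusted p below 0.05. The fold change was below 0 for 21 members and 50.5% of all genes, with a median of -0.22 against -0.0033 over all genes. The *Nlrx1*-/- libraries lay below all WT libraries for *Bbs1*, *Ift80*, *Ift81*, *Ift122* and *Tctn2* (6.23% of all genes) and above them for 0 members (7.09%). On counts edgeR called 3 members, *Ift46*, *Ift80* and *Tctn2*, against 5.04% of all genes, and DESeq2 called these and *Ift22*, *Ift27* and *Ift81*, against 15.8%, all of them lower. These values come from the stimulated libraries that the responses also use, so they are not a separate set of data.

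The stimulated libraries of *Ift80* were at 5.51, 5.58, 5.60 and 5.71 log2 CPM in the WT litters, and those of the *Nlrx1*-/- litters at 5.26, 4.84, 5.23 and 4.84. All *Nlrx1*-/- libraries lay below all WT libraries, litters 2 and 4 furthest, and the fold change was -0.55 (SE 0.13, limma adjusted p = 0.0349), which is 31.8% lower. *Tctn2*, a membrane protein of the transition zone, was at 5.11, 5.17, 5.28 and 5.38 in WT and 4.93, 4.74, 4.91 and 4.66 in *Nlrx1*-/- astrocytes. It did not overlap, and the fold change was -0.43 (SE 0.11, limma adjusted p = 0.0366), 25.7% lower. In vehicle *Tctn2* was at 5.14, 5.19, 5.10 and 5.33 in WT and 4.96, 4.58, 5.13 and 4.78 in *Nlrx1*-/- astrocytes, so that the genotypes overlapped only through litter 3. Both calls depended on single litters and were lost without WT litter 2, 3 or 4 or *Nlrx1*-/- litter 2 or 4, with adjusted p up to 0.132 for *Ift80* and 0.133 for *Tctn2*, while the fold changes stayed between -0.63 and -0.49 and between -0.47 and -0.38. Without *Nlrx1*-/- litter 3 limma called 9 members, all lower, among 1980 of all genes called lower. On the 8 stimulated libraries alone it called 0 members and 1 gene in all, with 13 members and 4622 genes at an unadjusted p below 0.05.

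**Figure D5:**
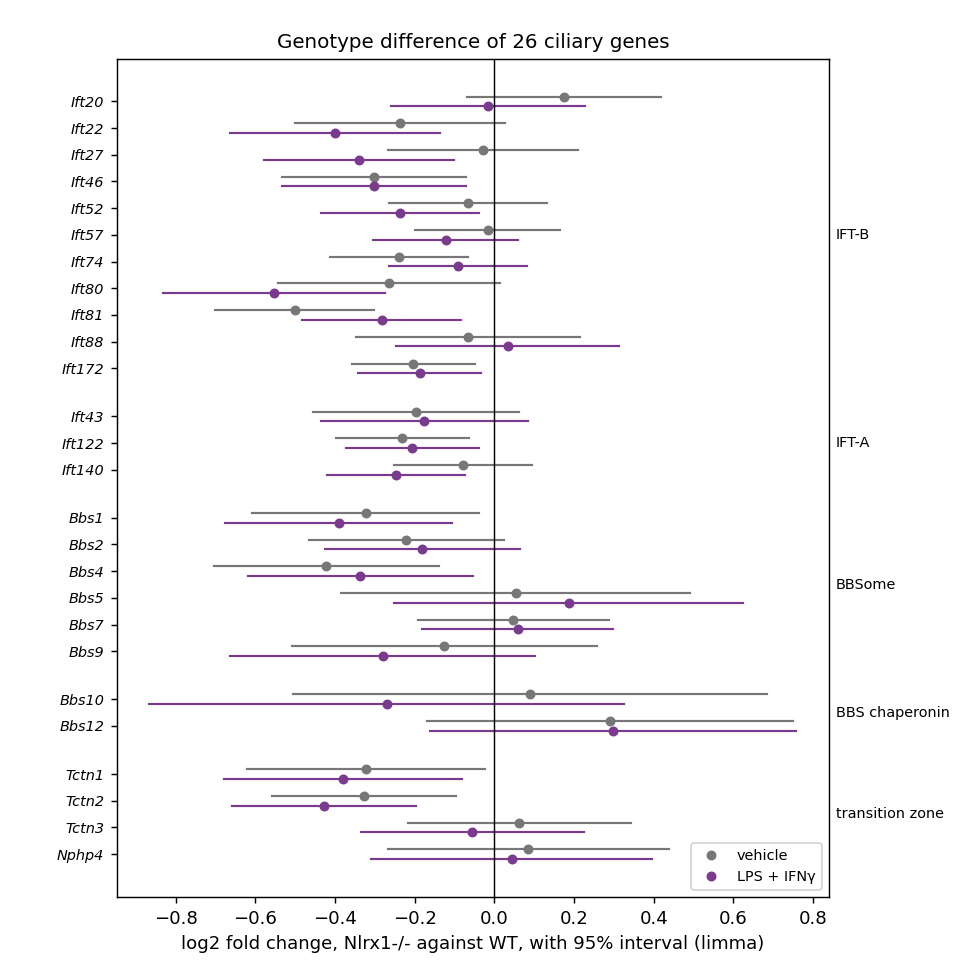
Log2 fold change of *Nlrx1*-/- against WT for the 26 members in vehicle (grey) and LPS+IFNγ (purple), with 95% intervals from limma that are not adjusted for the number of genes. Most points lie left of 0, 19 of 26 in vehicle and 21 of 26 in LPS+IFNγ, and *Ift80* and *Tctn2* in LPS+IFNγ passed the adjusted test.

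For markers of multiciliated cells the fold change between the genotypes was below 0 for 16 of 17 in both treatments. The median was -1.42 in vehicle, where 0 were called, and -1.47 in LPS+IFNγ, where 8 were called lower, against 4.41% of all genes. *Foxj1* was 0.57 lower on the log2 scale in *Nlrx1*-/- astrocytes under LPS+IFNγ (limma, adjusted p = 0.048). Of the 10 astrocyte markers 5 were called lower there, *S100b*, *Aldoc*, *Aqp4*, *Gja1* and *Slc1a2*, and of 12 proliferation genes 0 were called, with all 12 below 0. Of the 9 oligodendrocyte markers 8 were below 0 in LPS+IFNγ, with a median of -0.83 and 1 called, and 6 were below 0 in vehicle, with a median of -0.60. The part of these markers in the genotype difference of the members was not tested.

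The rest of the ciliary transport pathway was read from lists of genes with other names. After LPS+IFNγ, 21.9% of all genes fell and 24.9% rose in WT, and 25.5% fell and 26.6% rose in *Nlrx1*-/- astrocytes. Between the genotypes in LPS+IFNγ, 4.41% of all genes were called lower. A count near these shares is not a result about its list. Of 16 other subunits and partners of IFT and the BBSome in the table, 7 fell and 1 rose in WT after LPS+IFNγ, and 4 fell and 2 rose in *Nlrx1*-/- astrocytes. The 1 that rose in WT was *Tulp3*, which works with IFT-A to bring membrane proteins into the cilium, at 1.10 (limma, adjusted p = 3.27e-06) in WT and 1.39 (limma, adjusted p = 3.64e-07) in *Nlrx1*-/- astrocytes. *Ttc30b*, of IFT-B, fell by 0.52 and 0.42 on the log2 scale, and *Ttc8*, of the BBSome, by 0.33 and 0.42. *Lztfl1*, of the same list, fell by 0.40 in WT (limma, adjusted p = 0.0037) and was not called in *Nlrx1*-/- astrocytes, at -0.12. Between the genotypes 1 of the 16 was called, in LPS+IFNγ, the IFT-A gene *Wdr19*, at -0.50 (limma, adjusted p = 0.0349).

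Of 10 motor genes, 4 fell and 1 rose in WT and 6 fell and 2 rose in *Nlrx1*-/- astrocytes. *Kif3a*, of the kinesin that drives the outward trains, fell by 0.46 and 0.40 on the log2 scale, and its partner *Kifap3* by 0.25 and 0.28. *Kif3b*, of the same kinesin, went the other way and rose by 0.30 in WT and by 0.27 in *Nlrx1*-/- astrocytes, so this motor did not fall as a unit. Under LPS+IFNγ the genes of the returning dynein *Wdr34* (-0.49, limma adjusted p = 0.0349) and *Dync2h1* (-0.29, limma adjusted p = 0.0457) were lower in *Nlrx1*-/- than in WT astrocytes, and in vehicle 0 motor genes were called, with 9 of 10 below 0.

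Of 18 other genes of the transition zone, 7 fell and 2 rose in WT and 7 fell and 3 rose in *Nlrx1*-/- astrocytes, and 0 were called between the genotypes, where 15 of 18 were below 0 in vehicle and 11 of 18 in LPS+IFNγ. *Cc2d2a* fell by 0.33 and 0.34 on the log2 scale. Of 15 genes of the ciliary membrane and Hedgehog signalling, 5 rose and 3 fell in WT and 4 rose and 4 fell in *Nlrx1*-/- astrocytes. The Hedgehog effector *Gli3* rose by 0.88 and 0.79 and *Gli2* fell by 0.64 and 0.56. *Arl3*, a small GTPase that releases lipid-bound cargo in the cilium, was the 1 gene of this list called between the genotypes, at -0.32 (limma, adjusted p = 0.0384) in LPS+IFNγ.

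Of the 6 RFX factors, *Rfx3*, a regulator of ciliary genes, was the most lowered by LPS+IFNγ. It fell by 0.83 on the log2 scale in WT (limma, adjusted p = 2.29e-07) and by 0.74 in *Nlrx1*-/- astrocytes (limma, adjusted p = 5.44e-07), and it was lower in *Nlrx1*-/- than in WT astrocytes under LPS+IFNγ, at -0.34 (limma, adjusted p = 0.0349). The list was split, with 2 lower and 2 higher in WT and 1 lower and 3 higher in *Nlrx1*-/- astrocytes. *Rfx4*, the most abundant of the 6, rose by 0.32 in WT (limma, adjusted p = 0.0076) and by 0.19, without a call, in *Nlrx1*-/- astrocytes. *Rfx5* rose in both genotypes, by 0.28 and 0.23. For the difference between the responses, limma called 0 genes in each of these lists.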

How the data were processed

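RNA was sequenced from 16 libraries, grouped by the sample labels. The methods and labels give the pups as P6 and the vehicle as water, which the study's text elsewhere gives differently. The authors quantified reads with Salmon 1.7.0 on GRCm39 transcripts and deposited the expected counts, which are not normalized, and the TPM of each transcript. The authors also deposited CPM per gene as a signal scaled by TMM library sizes (tximport with length scaling, then a filter on low counts with a group size of 4), and the log2 of these CPM, whose prior count is not given in the sources used here.

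The deposited log2 CPM of all 16707 genes were fitted with limma 3.58.1 (lmFit, contrasts.fit, eBayes with trend) in R 4.3.3, with Benjamini-Hochberg adjustment over all genes and a threshold of 0.05. Responses and their difference followed the study's formula, in which each litter is a block nested in its genotype. The genotype comparisons had 1 term per condition and no litters, since each litter has 1 genotype. The pairing of the wells comes from the series' design text, by which both wells of a replicate are from the same mice, and after centring by condition the wells of 1 litter correlated across genes with an r of 0.07 to 0.35. The log2 CPM were preferred to counts because 106430 of 129698 transcripts could be paired with a symbol, so that as little as 52.6% of the reads of *Ift46* and 53.8% of those of *Bbs4* were counted in a library.

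Alternatives were log2(CPM + 1), a mean of at least 1 CPM, centring on the median, edgeR 4.0.16 and DESeq2 1.42.0 on expected counts summed per gene (rounded for DESeq2), other blocks, an adjusted p below 0.01 and leaving out each litter. The fits were tested on simulated data. Values in every library are given for up to 6 called members per comparison by adjusted p, or for the 2 with the lowest p where 0 were called. Of the other lists some called genes are named, not always those with the lowest adjusted p. *Ift57*, *Bbs7* and *Ift172*, and the marker genes, were named after their values were seen. The rule by name found 28 genes, of which 2 are not reported here. The members and lists were chosen with earlier results of these data known. Plots were drawn with matplotlib 3.10.9 in Python 3.11.15.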

Additional observations from a re-analysis of the deposited data

Results flagged for a closer look

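In 5 of 104 sets of 4 libraries (26 members in 4 groups), 1 library stood apart from the other 3 by Dixon's test, and chance flags about 5% of such sets. For *Bbs4* this was WT vehicle litter 4, at 4.49 log2 CPM against 4.34 to 4.35, and WT LPS+IFNγ litter 1, at 3.58 against 3.92 to 3.94. For *Ift122* it was WT vehicle litter 1, at 6.17 against 6.24 to 6.25, and for *Ift172* the same library, at 5.95 against 6.11 to 6.12. For *Ift81* it was *Nlrx1*-/- LPS+IFNγ litter 1, at 4.90 against 4.71 to 4.73.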

How the results depend on the processing

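No called member changed direction under the alternatives run, while the WT responses of *Bbs7* and *Ift172*, which were not called, changed sign with 1 litter left out. Genes of the other lists were not run under alternatives. In WT the number of called members stayed between 8 and 11. In *Nlrx1*-/- astrocytes it was 14, 8 at an adjusted p below 0.01, 8 with no replicate block and 9 to 13 with 1 litter left out, the lowest without *Nlrx1*-/- litter 4. In vehicle the genotype difference had 0 called members, 1 with DESeq2, 1 with a replicate block, and 0 to 4 with 1 litter left out. In LPS+IFNγ it had 2, then 0 at an adjusted p below 0.01, 6 with DESeq2, 4 with duplicateCorrelation, 8 with a replicate block, 0 on the 8 stimulated libraries alone, and 0 to 9 with 1 litter left out. The difference of the responses had 0 called members throughout. The cause was not tested.

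The block sets litters of the 2 genotypes with the same number together, for which no source used here gives a shared day, with correlations from -0.09 to 0.18. Over all genes in LPS+IFNγ, limma called 1471, 2815 with the replicate block, 2345 with DESeq2, 809 with edgeR (870 with RLE factors, 552 without its filter), 1 at an adjusted p below 0.01 or on the 8 libraries alone, and from 1 to 3868 with 1 litter left out. In vehicle it called 1, 591 with the replicate block, 676 with DESeq2, and up to 1618 without *Nlrx1*-/- litter 3, a fit that also called 822 genes for the difference of the responses. Depth limits *Bbs10* and *Bbs5* most, whose libraries hold as few as 59 and 79 reads.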
